A study of Mus musculus with 10 samples.

Results

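The genes described here are 36 contractile and calcium-handling genes of skeletal muscle, most of them with isoforms that differ between slow and fast fibres. They were chosen by name from the 15883 genes of the count table, and all 36 were present and passed the filter on low counts. By their known roles 15 were classed as slow genes, 15 as fast genes, 3 as shared by both fibre types and 3 as developmental genes. In the slow class Myh7b, Sln, Csrp3 and Ankrd2 were set against no fast partner. The RNA came from the biceps femoris, a muscle of the thigh, of 5 mice that carry a Zfp407 transgene (TG) and 5 wild-type mice (WT). Both groups were male, on the C57BL/6J background, 5 weeks old and fasted for 16 hours. Zfp407 encodes a zinc finger protein; the sources used here do not give the promoter that drives the transgene or the number of transgenic lines. The series concerns glucose homeostasis under Zfp407 overexpression, and the comparison addresses which muscle transcripts then differ.

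Mammalian muscle fibres are sorted by the myosin heavy chain they make. Type I (slow) fibres use Myh7, and the fast types IIa, IIx and IIb use Myh2, Myh1 and Myh4, which lie side by side on chromosome 11. Most other parts of the contractile apparatus also come as slow and fast partners: myosin light chains, the troponin subunits that sense calcium and switch on the thin filament, tropomyosins, the calcium pumps and the calcium store of the sarcoplasmic reticulum, and proteins of the Z disc. The type IIb fibre is the fastest and most glycolytic, and superficial hindlimb muscles of mice consist largely of fast fibres.

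The TG libraries held 15162400 to 19047834 counts each and the WT libraries 13530367 to 17814900. The 36 genes took 11.4% to 16.1% of the counts in TG libraries and 9.86% to 14.5% in WT libraries. Levels are in CPM, read counts scaled to the TMM-adjusted size of each library. A library carries its genotype and the number of its column, since the columns name no mouse. Zfp407 itself stood at 317 to 616 CPM in TG libraries, against 21.0 to 25.7 CPM in WT libraries. All 11 markers of skeletal muscle identity were present, with summed levels of 113788 to 141220 CPM in TG and 141616 to 196068 CPM in WT libraries. None of these markers was called in either direction. Their sum was mostly Ttn, at a mean of 85262 CPM in TG and 108995 CPM in WT (edgeR adjusted p = 0.354). Of 9 heart markers 4 were in the rows used, and their summed level was 5.45 to 11.5 CPM in TG and 4.804 to 9.83 CPM in WT libraries. All 14 hepatocyte markers were higher in the TG group, with summed levels of 308 to 4646 CPM against 66.0 to 181 CPM in WT, as were all 5 satellite cell markers (44.4 to 68.4 CPM against 19.5 to 31.7 CPM in WT). With 1 library left out the calls among hepatocyte markers numbered 8 to 14, the fewest without WT library 3, and those among satellite cell markers stayed at 5. With the slow level as a covariate 5 of the 14 hepatocyte markers were called. Of the leukocyte markers 1 of 6 tested was higher (Cd74, a call lost without TG library 1 or 2 or WT library 1, 3, 4 or 5, where its adjusted p was 0.0513 to 0.0726 in edgeR), and no tested marker of smooth muscle, fat, tendon, nerve, endothelium or red cells was called. The part of these marker lists in the results below was not tested.

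Upstream sequence is shown for Myh7, the defining slow gene, for Tnnc1 and Tnnt1, whose levels moved with it from library to library, and for Myh4, the most abundant fast myosin heavy chain. Each window is the 250 bases before a RefSeq start of the gene on GRCm38.p6, written 5′ to 3′ on the strand of the gene. The windows are chr14:54994550-54994799 (minus strand) for Myh7, chr14:31208062-31208311 (plus) for Tnnc1, chr7:4515976-4516225 (minus) for Tnnt1 and chr11:67237562-67237811 (plus) for Myh4. Capitals mark matches on either strand to motifs known from muscle promoters: the E box (CANNTG), the MCAT element (CATTCC), the CArG box and the MEF2 core.
Myh7 upstream window: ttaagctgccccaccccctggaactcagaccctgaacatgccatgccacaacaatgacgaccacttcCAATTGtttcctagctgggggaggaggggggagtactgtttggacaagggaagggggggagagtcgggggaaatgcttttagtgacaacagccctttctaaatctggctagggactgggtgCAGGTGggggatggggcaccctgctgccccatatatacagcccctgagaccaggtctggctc
Tnnc1 upstream window: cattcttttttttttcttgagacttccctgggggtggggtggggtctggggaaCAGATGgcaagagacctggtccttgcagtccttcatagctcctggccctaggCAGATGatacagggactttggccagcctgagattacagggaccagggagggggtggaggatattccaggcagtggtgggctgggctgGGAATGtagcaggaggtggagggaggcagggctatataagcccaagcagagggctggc
Tnnt1 upstream window: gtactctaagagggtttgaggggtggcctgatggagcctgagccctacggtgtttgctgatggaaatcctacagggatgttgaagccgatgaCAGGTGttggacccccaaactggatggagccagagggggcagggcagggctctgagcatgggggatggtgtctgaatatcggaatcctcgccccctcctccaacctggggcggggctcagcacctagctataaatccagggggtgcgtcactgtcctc
Myh4 upstream window: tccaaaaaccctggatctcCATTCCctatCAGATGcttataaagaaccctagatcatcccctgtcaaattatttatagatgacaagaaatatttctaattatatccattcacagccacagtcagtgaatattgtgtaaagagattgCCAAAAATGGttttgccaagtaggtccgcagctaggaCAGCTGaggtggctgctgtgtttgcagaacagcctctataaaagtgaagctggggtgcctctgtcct
The Myh7 window shown held E boxes, and a window before another RefSeq start of Myh7 (chr14:54994627-54994876, not shown) held an E box and an MCAT element. Of the other windows, the Tnnt1 window held a single E box, the Tnnc1 window E boxes and an MCAT element, and the Myh4 window E boxes, an MCAT element and a CArG box. RefSeq windows were found for 30 of the 36 genes, 36 windows in all. An E box was present in 88.9% of these windows and in 66.2% of all 32536 windows, an MCAT element in 25.0% and 12.6%, a CArG box in 11.1% and 1.48%, and a MEF2 core in 2.78% and 0.513%. The CArG box was found for Acta1, Actc1, Myh4 and Myl3, and the MEF2 core, in the form searched, for Myoz2. A base may count in more than 1 motif, and a match is a description of letters only.

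None of the 36 genes passed an adjusted p of 0.05 between TG and WT muscle, in either direction. In the same fit (edgeR's quasi-likelihood test, Benjamini-Hochberg over 13338 genes) 5.33% of all genes passed, 4.28% higher and 1.05% lower in TG. At an unadjusted p under 0.05 there were 3 of the 36 (Mybpc2, Tnnc2 and Actc1) and 18.1% of all genes. The TG and WT libraries overlapped for every one of the 36 genes, while they did not overlap for 8.04% of all genes. The median log2 fold change was -0.32 for the slow genes (4 above 0, 11 below), -0.08 for the fast genes (4 above, 11 below), 0.03 for the shared and -0.05 for the developmental genes, against 0.003 for all genes tested. Scaling by total counts alone moved the median of all genes to 0.27, and put the slow median at 0.006 (8 above 0, 7 below) and the fast median at 0.18 (13 above, 2 below), so both stayed below that of all genes. With 1 library left out the fast median ran from -0.21, without TG library 3, to -0.05, without WT library 4, and was -0.16 without WT library 1. The standard errors differed between the classes, with a median of 0.55 for slow and 0.17 for fast genes. In bulk muscle, fewer fibres of a type and less RNA per fibre cannot be told apart.

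**Figure D1:**
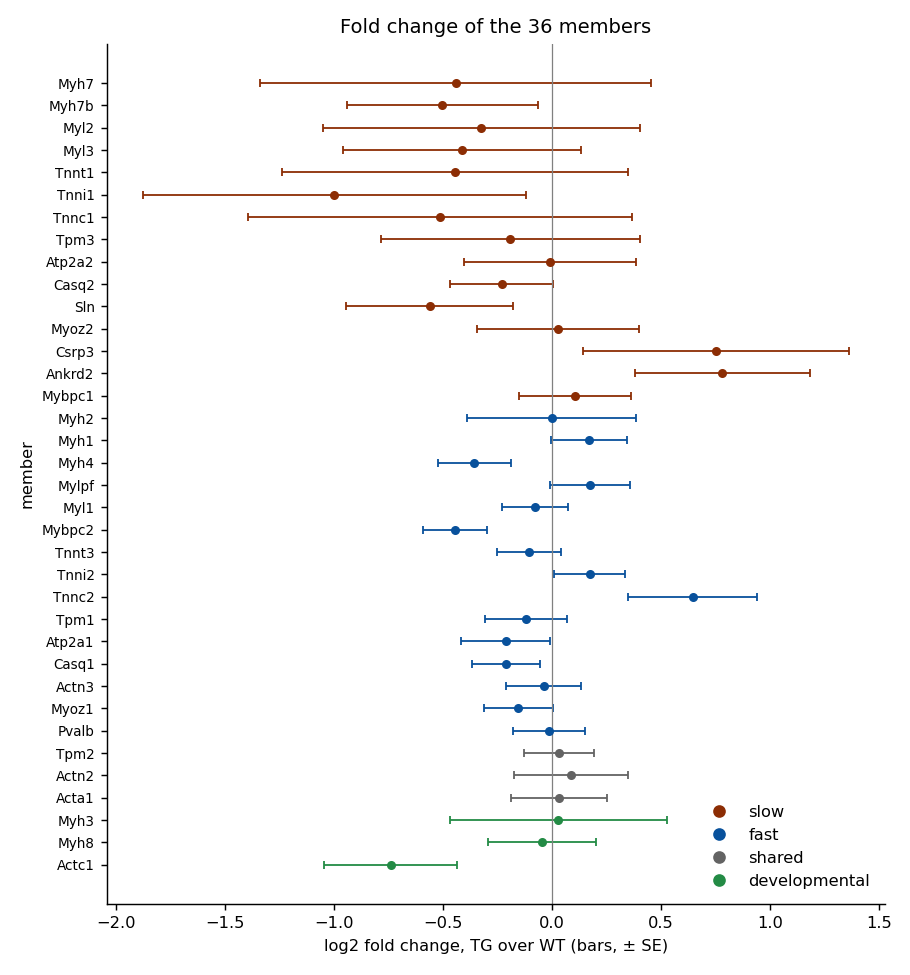
Log2 fold change of each of the 36 genes, TG over WT, with points for the edgeR estimate and bars for ± SE (5 libraries per group), coloured by class. Slow genes have the widest bars, up to 0.90 for Myh7, and no gene passed an adjusted p of 0.05.

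Slow genes differed widely between mice of the same genotype. Myh7 (ENSMUSG00000053093, chr14:54970684-54994626, minus strand, GRCm38), the slow myosin heavy chain, had 52.7, 36.3, 16.0, 93.3 and 229.8 CPM in TG libraries 1 to 5. In WT libraries 1 to 5 it had 428, 40.7, 77.3, 7.29 and 28.4 CPM. WT library 1 was the highest and WT library 4 the lowest of all 10, a 58.7-fold range that spans the whole TG group. The mean was 85.6 ± 85.4 CPM in TG and 116 ± 176 CPM in WT (SD, n = 5 each), and the log2 fold change was -0.44 ± 0.90 (SE; adjusted p = 0.855, edgeR). Myh7b, the slow tonic heavy chain, was scarce, at 0.745 to 1.39 CPM in TG and 0.455 to 3.39 CPM in WT libraries.

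The slow troponins and light chains had their extremes in nearly the same libraries. Tnnt1, the slow troponin T that anchors the troponin complex to tropomyosin, had 21.2, 15.2, 10.4, 32.6 and 79.7 CPM in TG and 153, 18.97, 31.1, 6.38 and 7.22 CPM in WT libraries 1 to 5. Tnni1, the slow inhibitory subunit, had 7.12, 4.84, 3.99, 14.7 and 35.2 CPM in TG and 99.7, 9.49, 15.7, 3.12 and 3.61 CPM in WT libraries. Both were highest in WT library 1, next in TG library 5, and lowest in WT library 4. The log2 fold change was -0.44 ± 0.79 for Tnnt1 and -0.999 ± 0.878 for Tnni1 (SE; adjusted p = 0.837 and 0.620, edgeR). Myl2, the slow regulatory light chain, spanned 25.8 to 114 CPM in TG and 10.4 to 244 CPM in WT libraries, and Myl3, the slow essential light chain, 18.9 to 62.3 CPM in TG and 12.9 to 117 CPM in WT libraries. Tpm3, the slow alpha tropomyosin, spanned 17.7 to 104 CPM in TG and 14.8 to 154 CPM in WT libraries, with 62.4% of the 50-base stretches of its transcript also present in Tpm3-rs7, so its counts are uncertain.

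The 3 slow genes of calcium handling varied less, with a highest library 2.62 to 5.45 times the lowest, against a median of 9.03 times over the 15 slow genes. This was not particular to them, since Mybpc1 of the thick filament was at 2.48 times and Myoz2 of the Z disc at 4.96 times. Atp2a2, the SERCA2 calcium pump, ran from 62.7 to 162 CPM in TG and from 45.03 to 219 CPM in WT libraries, with a log2 fold change of -0.01 ± 0.39 (SE; adjusted p = 0.994, edgeR). Casq2, a calsequestrin that stores calcium, had 20.6, 27.1, 20.8, 19.2 and 29.3 CPM in TG and 44.2, 19.6, 23.3, 33.2 and 16.9 CPM in WT libraries. Sln, sarcolipin, a small inhibitor of the calcium pumps, had 0.696 to 1.99 CPM in TG and 0.650 to 3.54 CPM in WT libraries, from only 9 to 45 counts. Mybpc1, the slow myosin-binding protein C, was the most abundant slow transcript per length, at a mean of 278 CPM per kb in TG and 259 CPM per kb in WT. Myoz2, calsarcin-1 of the Z disc, averaged 48.6 ± 13.7 CPM in TG and 47.7 ± 34.7 CPM in WT (SD, n = 5 each).

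Csrp3 and Ankrd2, Z disc proteins that respond to load and stretch, had the largest positive estimates of the slow class. Csrp3, muscle LIM protein, had 38.4, 38.6, 72.1, 48.6 and 169 CPM in TG libraries against 119, 26.3, 18.8, 45.9 and 7.87 CPM in WT libraries. Ankrd2 had 74.9, 66.1, 139, 65.4 and 188 CPM in TG libraries against 130.04, 63.5, 41.3, 47.3 and 28.6 CPM in WT libraries. WT library 1 lay among the TG values for both, and the other WT libraries lay below every TG library for Ankrd2 and, apart from WT library 4, for Csrp3. The log2 fold change was 0.75 ± 0.61 for Csrp3 and 0.78 ± 0.40 for Ankrd2 (SE; adjusted p = 0.584 and 0.331, edgeR). Without WT library 1 these were 1.53 for Csrp3 and 1.21 for Ankrd2, and without TG library 5 they were 0.19 and 0.48. With libraries scaled by total counts alone, which called 14.8% of genes higher, Ankrd2 had an edgeR adjusted p of 0.0499 and Tnnc2, a fast gene described below, one of 0.0451.

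Relative to all genes, the sign of the slow class depended on 1 library. With all 10 libraries its median log2 fold change was -0.32 in the main fit, where that of all genes was 0.003. With scaling by total counts alone the slow median was 0.006, still below the 0.27 of all genes. Without WT library 1 the median log2 fold change of the 15 slow genes was 0.66, with 13 above 0 and 2 below, and the smallest adjusted p among them was 0.0771 (edgeR). Myh7 was at 1.12, Tnnt1 at 0.96 and Tnni1 at 0.67 in that fit, and at -1.23, -1.12 and -1.76 without TG library 5. With any other single library left out the median stayed between -0.69 and -0.19. WT library 1 was the highest of all 10 libraries in 13 of the 15 slow genes and the highest of the WT group in 15. TG library 5 was the highest of the TG group in 13, and WT libraries 4 and 5 were the lowest of all 10 in 7 and 8. TG library 5 also held the highest summed level of hepatocyte markers, 4646 CPM, against 308 to 1099 CPM in the other TG libraries and 66.0 CPM in WT library 1. WT library 1 also had the largest share of counts in the rows Lars2, Gm15564 and Gm15662, at 33.9%, against 9.62% to 17.3% in TG libraries and 29.3%, 19.9%, 18.2% and 14.3% in WT libraries 2 to 5, and the highest summed level of adipocyte markers, 1225 CPM, against up to 1027 CPM in TG libraries. Over the 10 libraries log2 CPM of Myh7 had r = 0.45 with the log2 summed level of adipocyte markers and r = 0.20 with that of hepatocyte markers. The part of adipocyte and hepatocyte transcripts in the slow levels of these libraries was not tested. Across all 10 libraries Myh7 had r = 0.36 with the share of Lars2, Gm15564 and Gm15662 (Spearman rho = 0.10; two-sided permutation p = 0.306 and 0.784) and r = 0.04 with total counts (rho = 0.24; permutation p = 0.910 and 0.516). The Benjamini-Hochberg adjusted p of Pearson's r with that share and with total counts was 0.612 or more. Without WT libraries 1 and 4 r was -0.12 with the share and 0.24 with total counts.

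**Figure D2:**
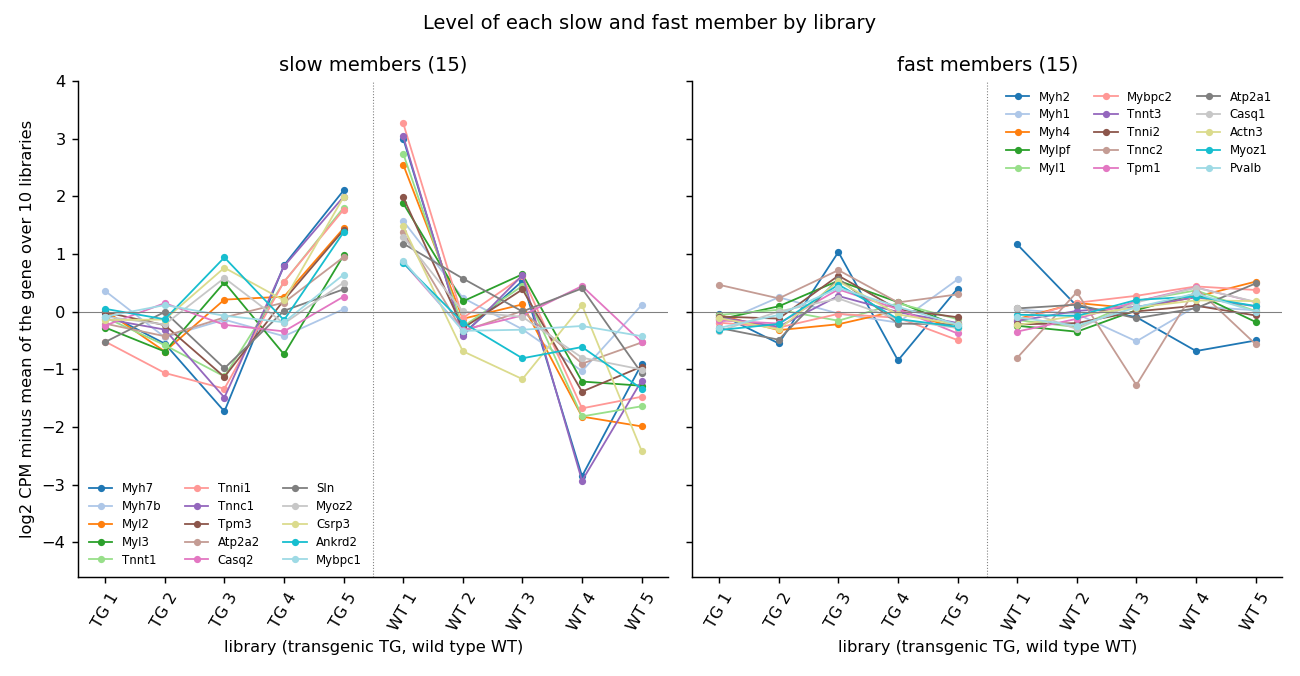
Level of each slow gene (left) and fast gene (right) in each library, as log2 CPM minus the mean of that gene over the 10 libraries, TG libraries left of WT libraries in each panel. Most slow genes peak in WT 1 and TG 5, while the fast genes stay close to 0, apart from Myh2 and Tnnc2.

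Within genotypes the SD of log2 CPM had a median of 0.76 in TG and 1.32 in WT over the slow genes, against 0.29 in TG and 0.24 in WT over the fast genes. Over all 13338 genes tested it was 0.28 in TG and 0.22 in WT. The SD of Tnnc1, 2.22 in WT, was the largest of all genes tested in that group. Myh7 had 1.44 in TG and 2.14 in WT. Casq2 and Mybpc1 had the smallest SDs of the slow genes in WT libraries, 0.57 and 0.55.

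Fast transcripts made up nearly all myosin heavy chain. Myh4 (ENSMUSG00000057003, chr11:67238029-67260446, plus strand), the type IIb heavy chain, had 35704, 29796, 31982, 37642 and 30453 CPM in TG libraries 1 to 5. In WT libraries 1 to 5 it had 34036, 41287, 38599, 44484 and 53383 CPM. Of the TG libraries 3 lay below the lowest WT library, which was WT library 1, and the others overlapped. The mean was 33115 ± 3412 CPM in TG and 42358 ± 7256 CPM in WT (SD, n = 5 each), and the log2 fold change was -0.36 ± 0.17 (SE; adjusted p = 0.280, edgeR). Myh1, the type IIx heavy chain, ran from 2158 to 3655 CPM in TG and from 1737 to 2647 CPM in WT libraries, with a log2 fold change of 0.17 ± 0.18 (SE; adjusted p = 0.683, edgeR).

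Myh2, the type IIa heavy chain, varied more within TG than any other fast gene, with an SD of log2 CPM of 0.75 in TG and 0.72 in WT. It had 532, 373, 1119, 304 and 722 CPM in TG and 1227, 585, 512, 340.4 and 386 CPM in WT libraries. WT library 1 and TG library 3 were the highest, and the group means were 609.9 ± 327 CPM in TG and 610.1 ± 358 CPM in WT (SD, n = 5 each). These means rested on single libraries, since the log2 fold change of Myh2 was -0.34 without TG library 3 and 0.39 without WT library 1 (edgeR adjusted p = 0.651 and 0.603). Among 50-base stretches of the transcripts, 26.9% of Myh2, 26.7% of Myh1 and 18.9% of Myh4 also occur in another gene, so reads between these neighbours may be shared. Counted per length among the 4 adult heavy chains, Myh4 was 90.7 ± 2.67% in TG and 93.1 ± 2.28% in WT, and Myh1 was 7.36 ± 2.15% in TG and 5.23 ± 0.961% in WT (SD, n = 5 each). Myh2 was 1.68 ± 0.933% in TG and 1.42 ± 1.02% in WT, and Myh7 was 0.228 ± 0.236% in TG and 0.283 ± 0.451% in WT. None of these shares separated the groups.

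**Figure D3:**
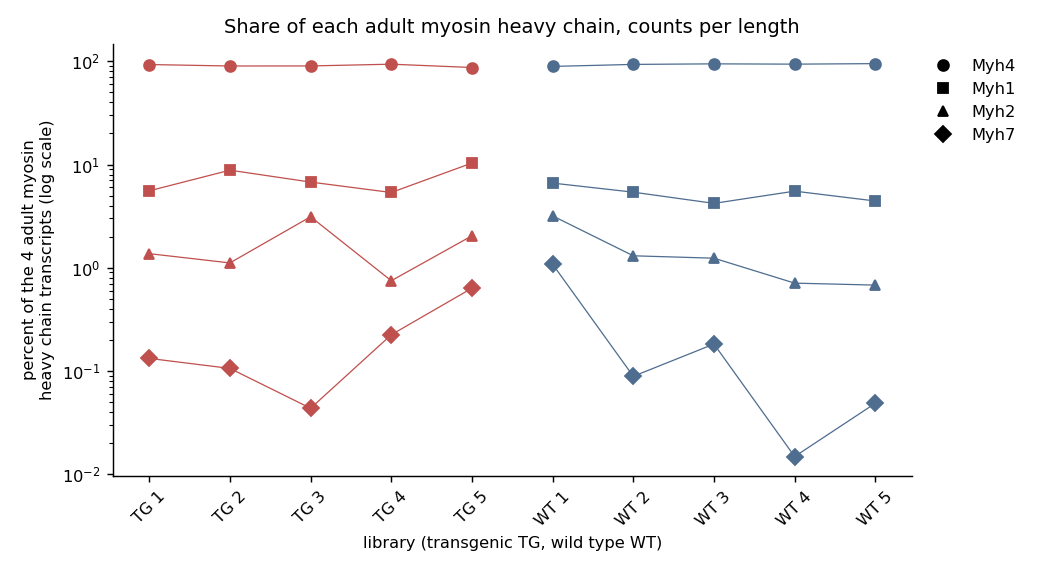
Percent of the counts per length of Myh4, Myh1, Myh2 and Myh7 in each library, on a log axis, with TG libraries in red on the left and WT libraries in blue on the right. Myh4 stays between 87.0% and 94.8%, while Myh7 spans 0.0148% to 1.08%.

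Mybpc2, the fast myosin-binding protein C, had the smallest p of the 36 genes. It had 4050.3, 3821, 4504, 4294 and 3286 CPM in TG libraries against 4154, 5146, 5595, 6261 and 6000.3 CPM in WT libraries. Of the TG libraries 3 lay below every WT library, and WT library 1 lay inside the TG range. The mean was 3991 ± 470.2 CPM in TG and 5431 ± 829 CPM in WT (SD, n = 5 each), and the log2 fold change was -0.44 ± 0.15 (SE; adjusted p = 0.112, edgeR). DESeq2 on the same counts gave -0.46 with an adjusted p of 0.0161, and called 2.08% of genes lower. In the authors' deposited table the log2 fold change was -0.45 with an adjusted p of 0.0317, and 1.78% of genes were called lower. Without TG library 3 and WT library 1, a setting chosen after seeing the data, edgeR gave -0.58 with an adjusted p of 0.0236, and called 2.01% of genes lower. The call on Mybpc2 therefore depended on the test and on these libraries.

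Apart from Tnnc2, described below, the other fast genes had smaller estimates than Mybpc2. The light chains Mylpf (regulatory) and Myl1 (essential) had log2 fold changes of 0.18 ± 0.18 and -0.08 ± 0.15 (SE), and the troponins Tnnt3 and Tnni2 had -0.11 ± 0.15 and 0.17 ± 0.16 (SE). Tpm1, the fast alpha tropomyosin, had -0.12 ± 0.19, and Actn3, the alpha-actinin of fast fibres, -0.04 ± 0.17 (SE). The calcium pump Atp2a1 and the calsequestrin Casq1 were each at -0.21, with SEs of 0.20 and 0.16, Myoz1 (calsarcin-2) was at -0.15 ± 0.16 and Pvalb, the calcium buffer parvalbumin, at -0.01 ± 0.16 (SE). The edgeR adjusted p of these 10 genes was 0.545 or more with all libraries. Without TG library 3 the log2 fold change was -0.43 for Atp2a1, -0.32 for Myoz1, -0.30 for Casq1 and -0.21 for Actn3 (edgeR adjusted p = 0.0804, 0.0673, 0.223 and 0.339). In that fit Mylpf was at 0.04 and Tnni2 at 0.004, Tpm1 was at -0.25, Tnnt3 at -0.20, Pvalb at -0.14 and Myl1 at -0.05. TG library 3 was the highest of its group in 12 of the 15 fast genes and in all 3 shared genes, and held the highest summed level of tendon markers, 278 CPM, against 22.7 to 63.4 CPM in the other TG libraries. In WT libraries that level was 38.6 to 167 CPM, the highest in WT library 3. Of the 15 fast genes, WT library 3 was the highest of its group in 0 and the lowest in 3. WT library 4 was the highest of its group in 12 of the 15 fast genes. The part of tendon transcripts in these levels was not tested.

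Tnnc2, the fast troponin C, was counted at an unusual level. It had 95, 96, 100, 90 and 73 counts in TG libraries and 27, 57, 27, 78 and 35 counts in WT libraries. Tnni2, a subunit of the same complex, had 47833 to 113267 counts, and per length Tnnc2 averaged 7.15 CPM per kb in TG and 4.59 CPM per kb in WT, against 7474 and 6632 CPM per kb for Tnni2. In the annotation 592 of the 800 exon bases of Tnnc2 (74.0%) overlap Ube2c on the opposite strand, and Ube2c had 37 to 76 counts per library. The sources used here do not say whether counting used strand, so the level of Tnnc2 and its log2 fold change of 0.65 ± 0.30 (SE; adjusted p = 0.272, edgeR) are uncertain.

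The shared genes did not differ detectably. Acta1, the skeletal alpha-actin of every thin filament, had log2 fold change 0.03 ± 0.22 (SE), and reached 25249 CPM in TG library 3 against 10977 to 15377 CPM in the other TG libraries and 12995 to 16660 CPM in WT libraries. Tpm2, beta tropomyosin, had 0.03 ± 0.16 and Actn2, an alpha-actinin classed here as shared, 0.09 ± 0.26 (SE). The edgeR adjusted p of the 3 genes was 0.905 or more. Without TG library 3 all 3 estimates were below 0, at -0.23 for Acta1, -0.04 for Tpm2 and -0.13 for Actn2. The developmental genes included Actc1, the cardiac alpha-actin that embryonic muscle also makes. It had 1376, 1939, 1092, 1618 and 663 CPM in TG libraries and 1183, 1616, 2803, 3290.1 and 2278 CPM in WT libraries. The groups overlapped, and the log2 fold change was -0.74 ± 0.30 (SE; adjusted p = 0.214, edgeR). The embryonic and perinatal heavy chains Myh3 and Myh8 were low, at 3.86 to 15.7 and 4.43 to 12.5 CPM in TG libraries and 3.19 to 19.3 and 6.12 to 7.80 CPM in WT libraries.

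Setting a slow gene against its fast partner, where it had one, within a library removes the scaling between libraries. All 11 log2 ratios overlapped between the groups. The difference of group means of the log2 ratios, TG minus WT, ran from -0.42 to 0.61 with a median of 0.33, and 8 were above 0. A mean of log2 values weighs 1 high library less than the edgeR estimate of mean level does, so signs can differ. For Myh7 to Myh4 the difference was 0.59, while the edgeR log2 fold change was -0.44 for Myh7 and -0.36 for Myh4. The median difference over the pairs was 0.80 without WT library 1, and -0.08 without TG library 5, -0.15 without WT library 4 and -0.07 without WT library 5. The ratio of Myh7 to Myh4 was -9.41, -9.68, -10.96, -8.66 and -7.05 (log2) in TG libraries and -6.31, -9.98, -8.96, -12.58 and -10.88 in WT libraries, a 76.7-fold range. Libraries of both genotypes lay through most of this range. The pair Tnnc1 and Tnnc2 had the widest range, 163-fold, and Casq2 and Casq1 the narrowest, 2.82-fold.

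Tnnc1, the slow and cardiac troponin C, had 185, 194, 62, 412 and 701 counts in TG libraries and 1185, 99, 315, 21 and 67 counts in WT libraries. The log2 ratio of Tnnc1 to Tnnc2 was 0.96, 1.01, -0.69, 2.19 and 3.26 in TG and 5.46, 0.80, 3.54, -1.89 and 0.94 in WT libraries, with the limit on Tnnc2 given above. The log2 ratio of Casq2 to Casq1 was -6.18, -6.13, -6.73, -6.49 and -5.73 in TG and -5.48, -6.29, -6.50, -6.24 and -6.98 in WT libraries. Of the 11 ratios 10 were highest in WT library 1, the exception being Mybpc1 to Mybpc2, which was highest in TG library 5. WT library 4 was the lowest for 6 ratios and WT library 5 for 4. Summed per length, the slow genes were 1.02%, 0.978%, 0.891%, 0.947% and 2.51% of slow plus fast transcripts in TG libraries, and 3.34%, 0.902%, 0.853%, 0.552% and 0.498% in WT libraries. The mean was 1.27 ± 0.696% in TG and 1.23 ± 1.19% in WT (SD, n = 5 each), a difference smaller than the spread within either group. Mybpc1 was the largest term of the slow sum, at a mean of 278 CPM per kb in TG and 259 in WT, against 13.7 and 18.7 for Myh7. The share therefore weighs Mybpc1 far more than Myh7.

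**Figure D4:**
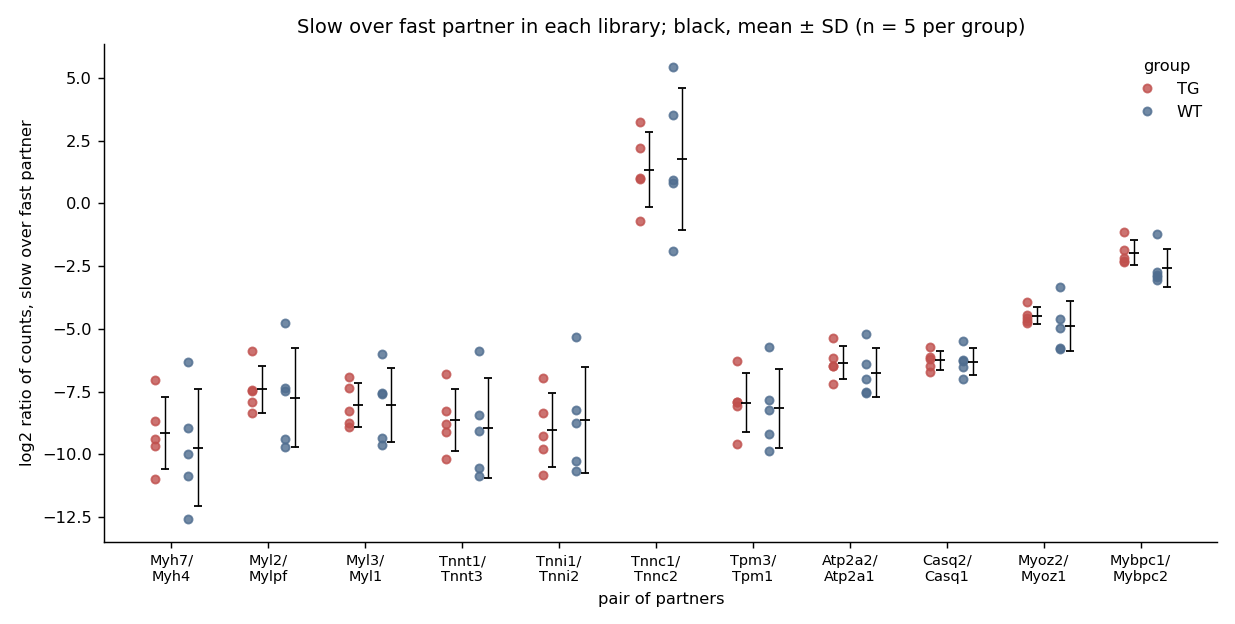
Log2 ratio of the counts of a slow gene over its fast partner in each library, TG (red) left of WT (blue), with black marks for the mean ± SD of 5 libraries. The groups overlap for all 11 pairs, and the highest WT point is WT library 1 throughout.

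Across the 10 libraries, 4 slow genes of the thin filament moved almost in step with Myh7. Pearson's r of log2 CPM with Myh7 was 0.995 for Tnnc1, 0.979 for Tpm3, 0.965 for Tnnt1 and 0.948 for Tnni1, with Spearman's rho of 0.988, 0.976, 0.988 and 0.964. The two-sided permutation p of r was 1e-05, the smallest that 100000 resamples can give, for Tnnc1 and Tpm3, and 3e-05 and 2e-05 for Tnnt1 and Tnni1. The permutation p of rho for these 4 genes was between 3e-05 and 5e-05. Without WT libraries 1 and 4, the farthest from the median of Myh7, r was 0.988, 0.975, 0.946 and 0.947, and within genotypes, as deviations from the group means, it was 0.996, 0.979, 0.965 and 0.961. These p-values are not adjusted, since the genes were chosen by name with earlier results known. The libraries share their scaling, and 22.2% of the 50-base stretches of Myh7 also occur in Myh6, which had 8 to 18 counts per library.

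Of 35 relations with Myh7 computed, 14 had a permutation p under 0.05 and 5 did so without WT libraries 1 and 4, the 4 above and Atp2a2 (r = 0.92 over all 10 libraries, 0.82 without them). Of the 13337 genes tested other than Myh7, members included, 3.28% had such a p over all 10 libraries and 5.5% without WT libraries 1 and 4. By Spearman's rho 10 of the 35 had a permutation p under 0.05, 7 of them slow genes, against 3.02% of the 13337. Myl2 had r = 0.86 and 0.65 without those libraries, and Mybpc1 r = 0.74 and 0.57. Myl3 had r = 0.72 and 0.37, Myh7b r = 0.71 and -0.06, and Myoz2 r = 0.68 and 0.21. The slow genes with the lowest r over all 10 libraries were Casq2 at 0.37, Csrp3 at 0.46, Ankrd2 at 0.49 and Sln at 0.52. Without WT libraries 1 and 4 these were 0.52 for Casq2, 0.46 for Csrp3, 0.29 for Ankrd2 and 0.66 for Sln, so the order of the slow genes below Atp2a2 did not hold. TG library 3, the lowest TG library for Myh7, Tnnt1, Tnni1, Tnnc1, Tpm3 and Sln, was the highest TG library for Myoz2, Myh2 and Actn2. Of the 15 fast genes 13 had r below 0, the lowest being Tpm1 at r = -0.81, which was -0.65 without WT libraries 1 and 4. Myh2, the fast gene of type IIa fibres, had r = 0.42, and -0.20 without those libraries. Myh3, the embryonic heavy chain, had r = 0.80, and 0.56 without them (permutation p = 0.00675 and 0.162).

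**Figure D5:**
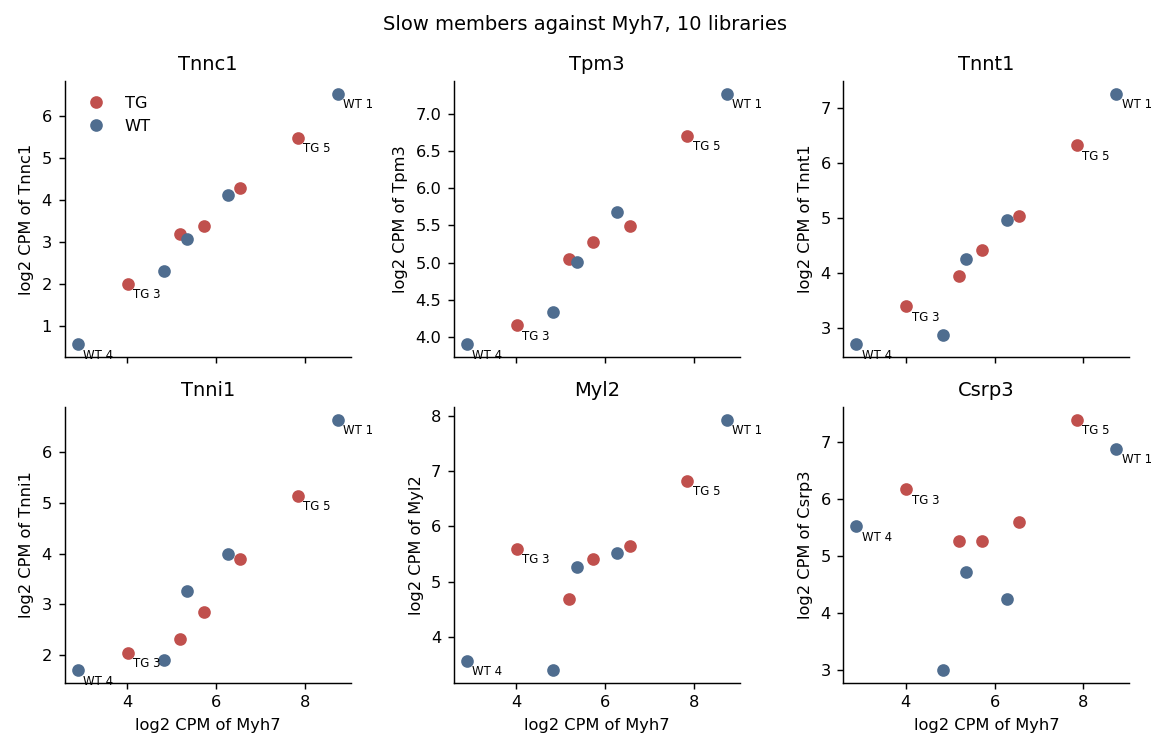
Log2 CPM of 6 slow genes against log2 CPM of Myh7 in 10 libraries, TG in red and WT in blue. Tnnc1, Tpm3, Tnnt1 and Tnni1 rise with Myh7 (r from 0.948 to 0.995), Myl2 less closely (r = 0.86), and Csrp3 least (r = 0.46).

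Outside the 36 genes, the transcripts most like Myh7 were looked for among 8183 genes with a mean count of at least 100, as a description with no p. Arpp21 came highest, at r = 0.91, then Tmem135 at 0.86, followed by Timm9, Ift20, Hp, St3gal1, Slc31a1, Npr3, Spty2d1 and Gbe1 down to 0.77. The lowest were Mical2 at -0.84, Irs1 at -0.82, Hoxd8 and Nrf1 at -0.78 and Dexi at -0.77. Arpp21 ran from 7.97 to 12.4 CPM in TG and from 6.64 to 14.0 CPM in WT libraries, a much narrower range than that of Myh7. Of the 36 genes 5 had a higher r with Myh7 than any of the 8183.

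Other lists of the same system gave few calls. Among 40 other sarcomere genes none rose and 1 fell, Murc, a muscle cavin, with a log2 fold change of -0.44 ± 0.10 (SE; adjusted p = 0.0263, edgeR) and a list median of -0.12. It had 77.5, 84.8, 76.1, 89.5 and 77.0 CPM in TG libraries against 109.9, 95.2, 108, 129 and 107 CPM in WT libraries, so the groups did not overlap. Its call was lost without TG library 1 or 5 or WT library 3, 4 or 5 (edgeR adjusted p from 0.0507 to 0.0725) and with scaling by total counts alone (-0.18, adjusted p = 0.363). Among 36 regulators of fibre type none passed, with a median of -0.09; the smallest p values were those of Mafa, a transcription factor (-0.56, edgeR adjusted p = 0.0736), and Rcan1, an inhibitor of calcineurin (0.61, adjusted p = 0.101). Of 15 companion genes of slow and oxidative fibres 1 rose, the lactate transporter Slc16a1 (log2 fold change 0.62 ± 0.14, SE; edgeR adjusted p = 0.0225; list median 0.14). That call was lost without TG library 5 or WT library 2, 3, 4 or 5, where its adjusted p was 0.0542 to 0.0863 in edgeR. Of 15 companion genes of fast fibres none passed, with a median of -0.07; Phkg1, a subunit of phosphorylase kinase, was at -0.34 (edgeR adjusted p = 0.246) and Gpd1, glycerol-3-phosphate dehydrogenase, at -0.26 (adjusted p = 0.348). These counts stand beside the 4.28% of all genes that rose and the 1.05% that fell.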

How the data were processed

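RNA-seq libraries of biceps femoris from 5 TG and 5 WT mice were analysed. The authors deposited a table of whole-number counts per gene, not normalized; per the submitters' processing notes HTSeq 0.6.1, SAMtools 1.2, TopHat2 2.1, DESeq2 1.10 and Bowtie2 2.2.6 were used with build GRCm38.p4. The sources used here give no counting settings, strand or gene model. The same table, per the file headers, holds the authors' mean signal per gene, their log2 fold change with its standard error, a test score and their p-values. Columns were matched to genotype only, so libraries could not be tied to single mice. The series describes separate mice. The 20 pairs of libraries within a group differed beyond sampling noise (lowest chi-square per degree of freedom, 17.5). That value cannot tell separate mice from repeated libraries of 1 mouse, since both can differ beyond sampling noise.

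The test was edgeR's quasi-likelihood test (glmQLFit, glmQLFTest; edgeR 4.0.16 in R 4.3.3) with TMM scaling and no covariate, on the 13338 genes that filterByExpr kept, with Benjamini-Hochberg adjustment. SEs were taken from the fold change and F statistic. Log2 CPM used a prior count of 2. Levels per kb used the transcript with the longest coding sequence in GENCODE M21 (GRCm38), to which 99.7% of genes matched. Alternatives were other scalings and filters, DESeq2 1.42.0, the authors' table, the slow level as covariate and each library left out. Scripts were tested on simulated data. The members and lists were chosen with earlier results of these data known. The naming rule gives every member, in every library for Myh7, Myh4 and the pairs with the widest and narrowest ratios, up to 3 called genes or up to 2 with the smallest p of each other list, and the 10 most and 5 least Myh7-like genes; marker lists are given as counts, with Cd74 named as the single call of its list. Other members shown in every library were chosen after their values were seen. The planned adjustment of correlations over the members and an alignment of proteins are not reported.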

Additional observations from a re-analysis of the deposited data

Results flagged for a closer look

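Among 72 groups of 5 libraries (36 genes in each genotype), 5 held a library flagged by Dixon's test on log2 CPM. In these the gap to the nearest library, divided by the range of the group, exceeded the 95% critical value of 0.71, where chance flags about 1 in 20 groups. TG library 3 stood above the other TG libraries in 3 fast genes. Its log2 CPM was 12.81 for Tnni2, against 12.06 to 12.22 in the others, 13.51 for Atp2a1, against 12.45 to 12.73, and 10.60 for Myoz1, against 9.81 to 10.002. In the WT group, library 1 had 10.80 for Mybpc1, against 9.49 to 9.66 in the others, and library 3 had 10.76 for Myh1, against 11.24 to 11.37. Tendon transcripts were highest in TG library 3 and next highest in WT library 3, and their part in these values was not tested.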

How the results depend on the processing

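No paired analysis was possible because the columns carry a group and a column number that match no mouse and the labels give no replicate numbers. The members called higher were 0, and 2 with total counts only (Ankrd2, log2 fold change 1.06, edgeR adjusted p = 0.0499, and Tnnc2, 0.91, adjusted p = 0.0451). That scaling moved the median of all genes to 0.27 and called 14.8% of genes higher. The members called lower were 0, and 1 (Mybpc2) with DESeq2, with the authors' deposited table and without TG library 3 and WT library 1, a setting chosen after seeing the data (-0.58, edgeR adjusted p = 0.0236, 2.01% of genes lower); the cause was not tested. In the last setting the median of the slow genes was 0.90. All genes called were 711, and 2014 with total counts only, 464 with at least 10 counts in every library, 1230 with DESeq2, 1158 in the authors' deposited table, 1115 at an adjusted p of 0.1, and 450 to 1116 with 1 library left out, the lowest without WT library 3 and the highest without TG library 3. No member was called with any 1 library left out. Relations with Myh7 at p under 0.05 were 14, and 5 without WT libraries 1 and 4, where r of Myh7b was -0.0569. The difference in summed slow share, TG minus WT, was 0.04 percentage points, and -0.27 to 0.57 with 1 library left out. Of 739 recomputed member fold changes 85 changed sign, none of them called. The SEs of the slow genes ran from 0.24 to 0.90 with a median of 0.55, and none of their estimates passed in the main fit. The size of difference that 5 libraries per group could detect was not computed.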
